A study of Mus musculus with 6 samples.

Results

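Zfp36, Zfp36l1, Zfp36l2, Zc3h12a, Zc3h12d, Rc3h1, Rc3h2 and Pnrc1 encode regulators of mRNA decay that act in T cell activation. These 8 were chosen by name from the 17744 genes of the authors' full table. They and the gene lists below were chosen with earlier results of these data known, so their counts beside all genes are descriptive only. RNA-seq was performed on mouse spleen T cells that had been sorted by flow cytometry for CD45, CD3 and CD8a. The 3 control libraries carry the genotype wt and the treatment control, and the 3 others are labelled fus irradiation in both fields. The series title speaks of focused ultrasound, sound waves concentrated on a tissue, acting on the spleen as a cancer treatment, and these libraries are called ultrasound 1 to 3 here. Strain, age, dose and the interval from treatment to collection are not given in the labels used here. Nothing in the labels says that libraries of a group came from separate animals, so p-values measure only the spread between these samples, which may be technical.

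Messenger RNAs of activated lymphocytes, above all those of cytokines, are kept short-lived by proteins that bind them and hand them to the general decay machinery. The tristetraprolin family (Zfp36, Zfp36l1 and Zfp36l2) binds AU-rich elements and recruits the CCR4-NOT deadenylase, which removes the poly(A) tail. Regnase-1 (Zc3h12a) is a ribonuclease that cuts stem-loop RNA, Zc3h12d is a member of the same family, and the Roquin proteins (Rc3h1 and Rc3h2) bind stem-loops and also recruit CCR4-NOT. Pnrc1 was first described as a nuclear receptor coactivator and interacts with the decapping complex. In mice, loss of Regnase-1 or of Roquin function leads to T cell activation and autoimmunity.

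Reads recovered from the deposited values numbered 35024080 to 35297644 per control and 35204096 to 38113103 per ultrasound library. Ultrasound 1 stood apart from the other two: over all genes tested it differed from them by a root mean square of 0.52 on the log2 scale, against 0.21 between ultrasound 2 and ultrasound 3 and 0.35 to 0.49 between ultrasound 1 and the controls. The sorted cell type was checked by its markers, in FPKM (fragments per kilobase of gene, scaled to library depth): over the 6 libraries Cd3e had 165 to 310.0, Cd8a 251 to 314 and Cd8b1 438 to 562, and the 7 CD8 T cell markers tested had limma adjusted p from 0.222 to 0.762. Some markers of other cells differed between the groups. Of all genes tested, every ultrasound library lay above every control in 25.9%. The summed macrophage and monocyte list had 574 to 1168 FPKM in controls and 2324 to 3773 in ultrasound libraries. Of its 12 markers, 9 lay above every control and 4 had a limma adjusted p under 0.05, all higher. The summed neutrophil list had 177 to 549 FPKM in controls and 2277, 569.8 and 596.7 in ultrasound 1, 2 and 3. Of its 8 markers, 5 lay above every control, and 0 had a limma adjusted p under 0.05. The summed B cell list, at 218 to 339 FPKM in controls, was 163 in ultrasound 1 but 851 and 741 in the other two, and none of its 6 markers lay above every control in all ultrasound libraries. The summed NK cell list overlapped, at 35.8 to 44.2 FPKM in controls and 27.8 to 56.9 in ultrasound libraries, but 2 of its 5 markers lay above every control. One of them, Klrb1c, was called higher, with 1.14 to 1.96 FPKM in controls and 5.15 to 8.97 in ultrasound libraries (limma adjusted p 0.0297). The other, Ncr1, had 0.133 to 0.228 FPKM in controls and 0.533 to 5.85 in ultrasound libraries, and Eomes, which makes up most of the sum in controls, had 32.0 to 39.9 and 19.6 to 31.7. No marker of these 4 lists was at 0 in any library, and the part of these cells in the values that follow was not tested. The summed CD8 T cell list had 2261 to 2369 FPKM in controls and 1946, 2546 and 2306 in ultrasound 1, 2 and 3. In bulk RNA, fewer cells of a type and less RNA per cell cannot be told apart.

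Of the 8 regulators, 3 fell in ultrasound libraries and 0 rose: Zc3h12a, Pnrc1 and Zfp36l1. By the ratio of mean FPKM, Zc3h12a was 2.62-fold, Pnrc1 2.58-fold and Zfp36l1 1.56-fold lower. A gene was called when its adjusted p was under 0.05 in limma, fitted to log2(FPKM + 1) over 10655 genes with at least 1 FPKM in 3 libraries or more, and all 8 regulators entered that fit. Of all genes tested, 1.56% were called lower and 6.55% higher, 8.11% in all. At an unadjusted limma p under 0.05, 5 of the 8 were lower and 0 higher, where 8.57% of all genes tested were lower and 31.2% differed in either direction. With limma voom on recovered reads 3 regulators were called lower and 0 higher, where 2.35% of genes were called lower and 2.98% higher. The median log2 change was -0.65 over the 8 regulators and 0.09 over all genes tested. In 5 of the 8 (Zfp36, Zfp36l1, Zc3h12a, Rc3h1 and Pnrc1) every ultrasound library lay below every control, as it did in 8.96% of all genes tested. Zfp36l2, Zc3h12d and Rc3h2 overlapped between the groups.

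**Figure D1:**
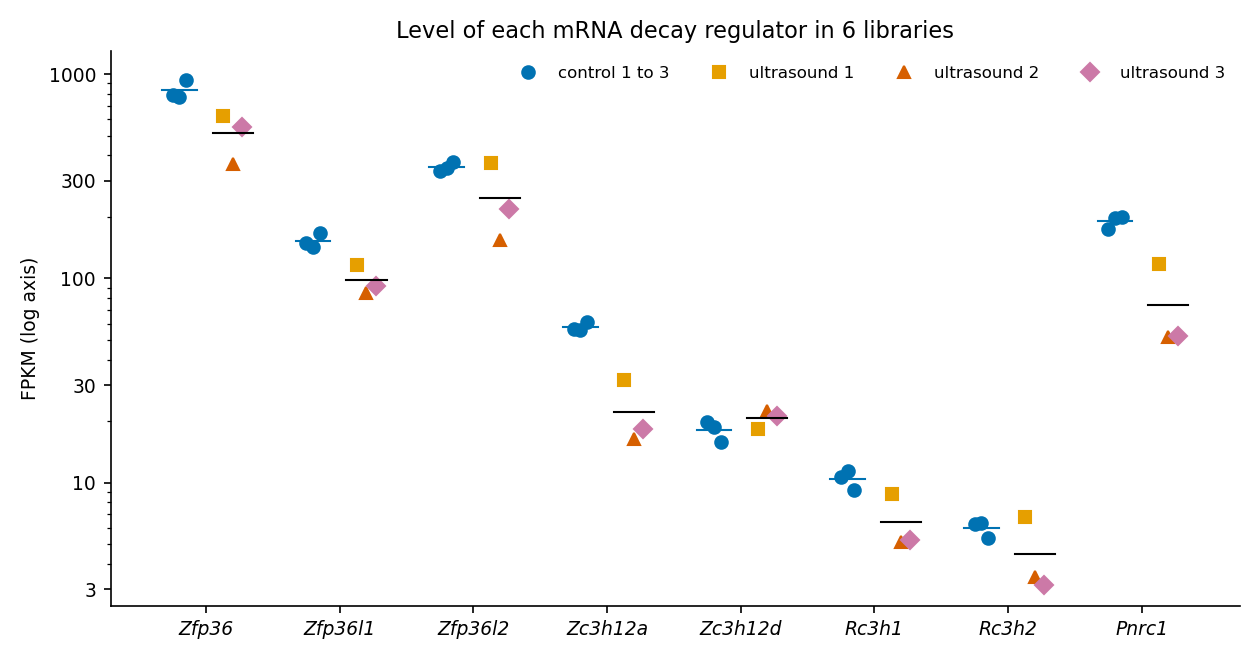
FPKM of the 8 regulators in each library on a log axis; circles are the 3 controls, the square, triangle and diamond are ultrasound 1, 2 and 3, and horizontal lines are group means. Ultrasound 2 and ultrasound 3 lie below every control for 7 of the 8 genes, Zc3h12d being the exception, and ultrasound 1 does so for 5.

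The 3 calls depended on which libraries entered. Without ultrasound 1, 7 of the 8 regulators were called lower by limma, where 19.7% of all genes tested were called lower and 34.1% higher. When ultrasound 2 and ultrasound 3 were given a term of their own, so that the controls were set against ultrasound 1 alone, Zc3h12a and Pnrc1 were called lower. Of all genes tested, 0.441% were called lower and 0.967% higher in that fit. Its spread comes from the 3 controls and from ultrasound 2 with ultrasound 3, and the lone library is assumed to vary like them, so these calls describe ultrasound 1 and have no replicate. Leaving out control 1, control 2, control 3, ultrasound 2 or ultrasound 3 left 0 regulators called, and the same 5 omissions left 567, 0, 0, 0 and 0 genes called in all. Zc3h12a kept a log2 change between -1.69 and -1.23 over the 6 omissions and Pnrc1 between -1.84 and -1.26. The split of all calls moved with scaling, from 698 higher and 166 lower to 280 and 188 with median-of-ratios size factors. That scaling moved the median log2 change of all genes from 0.09 to -0.02, and the same 3 regulators were called under it (1.77% of genes called lower and 2.63% higher).

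Zc3h12a (NCBI Gene 230738, GRCm38 chr4:125118414-125127881) encodes Regnase-1, the endonuclease. It had 56.8, 55.9 and 61.2 FPKM in controls 1, 2 and 3 and 31.9, 16.3 and 18.3 in ultrasound 1, 2 and 3. The controls spanned a narrow range, and ultrasound 1 lay between them and the other two ultrasound libraries. The control mean was 58.0 ± 2.86 and the ultrasound mean 22.2 ± 8.47 FPKM (SD, n = 3 each). On the log2 scale Zc3h12a fell by 1.41 (standard error 0.23, limma adjusted p 0.0307). Ultrasound 1 held 55.0% of the control mean, ultrasound 2 28.1% and ultrasound 3 31.6%. The values rest on 5489 to 6058 recovered reads per control and 1711 to 3147 per ultrasound library. Over the alternatives its limma adjusted p ranged from 4.33e-05 to 0.159, and the authors' deposited DESeq2 q-value is 4.59e-06.

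Zc3h12d (NCBI Gene 237256, GRCm38 chr10:7832323-7870397), also called TFL, is the other member of this ribonuclease family measured at an appreciable level. It had 19.9, 18.7 and 15.8 FPKM in controls and 18.4, 22.4 and 21.2 in ultrasound libraries. Ultrasound 1 lay within the control range and ultrasound 2 and ultrasound 3 above it. Its log2 change was 0.18 with a 95% interval from -0.10 to 0.46 (limma adjusted p 0.321), and with median-of-ratios size factors it was 0.06. Of the remaining family members, Zc3h12b had at most 0.202 and Zc3h12c at most 0.856 FPKM in any library and did not enter the fit.

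Pnrc1 (NCBI Gene 108767, GRCm38 chr4:33245423-33248787) changed by the same order as Zc3h12a from a higher level. It had 173, 196 and 200.5 FPKM in controls and 117, 51.9 and 52.5 in ultrasound 1, 2 and 3. Ultrasound 2 and ultrasound 3 were nearly equal, and ultrasound 1 stood at 61.5% of the control mean against 27.3% and 27.6% there. Its mean was 190.1 ± 14.5 FPKM for controls and 73.8 ± 37.4 for ultrasound (SD, n = 3 each), and Pnrc1 fell by 1.46 on the log2 scale (standard error 0.31, limma adjusted p 0.0407). Over the alternatives its adjusted p ranged from 4.07e-05 to 0.173. Its relative Pnrc2, a cofactor of decapping in nonsense-mediated decay, had 48.0 to 50.7 FPKM in controls and 49.1 to 50.1 in ultrasound libraries, a log2 change of 0.00 with standard error 0.07 (limma adjusted p 0.971).

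The tristetraprolin family held the most abundant transcripts of the 8. Zfp36 (NCBI Gene 22695, GRCm38 chr7:28376784-28379228), which encodes tristetraprolin itself, had 789, 774 and 940.1 FPKM in controls, a mean above that of 99.2% of genes tested, and 623, 362 and 551 in ultrasound 1, 2 and 3. All 3 ultrasound libraries lay below all controls, and ultrasound 2 was the lowest at 43.4% of the control mean. The log2 change of -0.73 (standard error 0.21) did not pass, with a limma adjusted p of 0.0749. The authors' deposited table gives Zfp36 a DESeq2 log2 fold change of -0.82 with a q-value of 0.0089.

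Zfp36l1 (NCBI Gene 12192, GRCm38 chr12:80107760-80113013) was the family member that passed. It had 149.5, 142 and 166 FPKM in controls and 116, 85.2 and 91.7 in ultrasound libraries. The groups did not overlap, and the spread of 16.8% (coefficient of variation) among ultrasound libraries was the smallest of the 7 regulators with a negative log2 change. The means were 152 ± 12.3 and 97.8 ± 16.4 FPKM (SD, n = 3 each). Zfp36l1 fell by 0.65 on the log2 scale (standard error 0.14, limma adjusted p 0.0414). Over the alternatives the limma adjusted p ranged from 0.000709 to 0.17, and the authors' deposited DESeq2 q-value is 0.000384.

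Zfp36l2 (NCBI Gene 12193, GRCm38 chr17:84183924-84187947) split by library. It had 336, 345 and 371 FPKM in controls, 366 in ultrasound 1, and 154 and 219 in ultrasound 2 and ultrasound 3. Ultrasound 1 thus lay inside the control range, at 104% of the control mean. The log2 change was -0.60 with a 95% interval from -1.29 to 0.09 (limma adjusted p 0.201). It was -0.93 without ultrasound 1 (limma adjusted p 0.00319) and 0.062 in ultrasound 1 against the controls.

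The Roquin genes were the least abundant. Rc3h1 (NCBI Gene 381305, GRCm38 chr1:160906411-160974976), which encodes Roquin-1, had 10.7, 11.3 and 9.24 FPKM in controls and 8.82, 5.14 and 5.25 in ultrasound libraries. The groups did not overlap, although ultrasound 1 was close to control 3. Its log2 change of -0.66 (standard error 0.20) did not pass, with a limma adjusted p of 0.0854, and the authors' deposited table gives -0.82 with a q-value of 0.0137. Rc3h2 (NCBI Gene 319817, GRCm38 chr2:37368861-37424370), which encodes Roquin-2, had 6.25, 6.32 and 5.35 FPKM in controls and 6.81, 3.44 and 3.17 in ultrasound libraries. Here ultrasound 1 was the highest of the 6 libraries, and the other two were the lowest. The log2 change of Rc3h2 was -0.41 with a 95% interval from -0.98 to 0.17 (limma adjusted p 0.278). The pseudocount of 1 understates changes at these levels: with 0.1 the changes were -0.74 for Rc3h1 and -0.49 for Rc3h2, and the side of the threshold was the same for both.

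**Figure D2:**
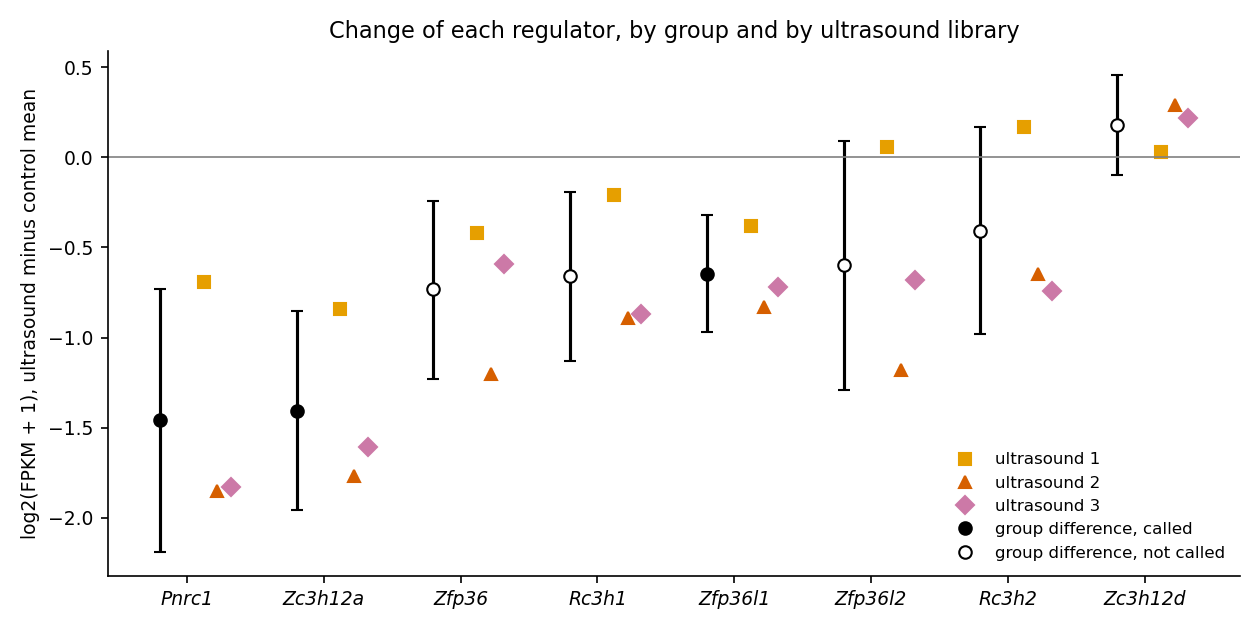
Difference from the control mean on the log2(FPKM + 1) scale for each regulator. Black circles with bars are the group difference with its 95% limma interval, filled where adjusted p was under 0.05, and coloured symbols are the single ultrasound libraries; ultrasound 1 is nearer to the control mean than ultrasound 2 and ultrasound 3 for all 8 genes, and for Zfp36l2, Rc3h2 and Zc3h12d (by 0.06, 0.17 and 0.03) it lies above it.

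By ultrasound library, the 8 regulators had a median log2 difference from the control mean of -0.30 in ultrasound 1, -1.03 in ultrasound 2 and -0.73 in ultrasound 3, where all genes tested had 0.06, 0.13 and 0.09. In ultrasound 1, 5 of 8 lay below every control, beside 23.1% of all genes tested. In ultrasound 2 and ultrasound 3, 7 of 8 did, beside 29.6% and 34.5%. The authors' deposited table, from DESeq2, has q under 0.05 for 5 of the 8, all lower (Zfp36, Zfp36l1, Zc3h12a, Rc3h1 and Pnrc1), where it has 4.98% of its genes lower and 7.3% higher at that threshold. Its log2 fold changes for Zc3h12a and Pnrc1 are -1.51 and -1.49.

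The order of the transcripts per length, taken by mean FPKM of the group, differed between the groups. In controls it was Zfp36, Zfp36l2, Pnrc1, Zfp36l1, Zc3h12a, Zc3h12d, Rc3h1 and Rc3h2, and the FPKM ranges of neighbours in this order did not overlap. In ultrasound libraries Zfp36l1 came before Pnrc1 by the mean, though not in ultrasound 1 (116.3 and 117.0 FPKM). The ranges overlapped between Zfp36 and Zfp36l2, Zfp36l1 and Pnrc1, Zc3h12a and Zc3h12d, and Rc3h1 and Rc3h2. Within each ultrasound library Zfp36 still exceeded Zfp36l2, by 1.70 to 2.52 times, and Rc3h1 exceeded Rc3h2, by 1.29 to 1.66 times.

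The balance between related regulators was compared within each library, as the log2 ratio of FPKM + 1, in 5 pairs. The ratio of Zc3h12a to Zc3h12d moved most: FPKM of Zc3h12a were 2.86, 2.98 and 3.86 times those of Zc3h12d in controls, and 1.73, 0.727 and 0.864 times in ultrasound 1, 2 and 3. In 2 ultrasound libraries the order of the pair was thus inverted. The log2 ratio went from 1.63 ± 0.23 to 0.04 ± 0.63 (SD, n = 3 each), a difference of -1.59 with an exact permutation p of 0.1 (two-sided), the smallest that 3 against 3 libraries allow, and 0.25 adjusted over the 5 pairs. Rc3h1 to Rc3h2 went from 0.71 ± 0.04 to 0.46 ± 0.13, also without overlap, with the same exact permutation p of 0.1 and 0.25 adjusted. The 3 pairs within the tristetraprolin family overlapped between the groups, with log2 differences of -0.09, -0.14 and -0.05 and exact permutation p from 0.6 to 0.8. A ratio within a library shows unequal change of 2 transcripts and not which of them changed.

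**Figure D3:**
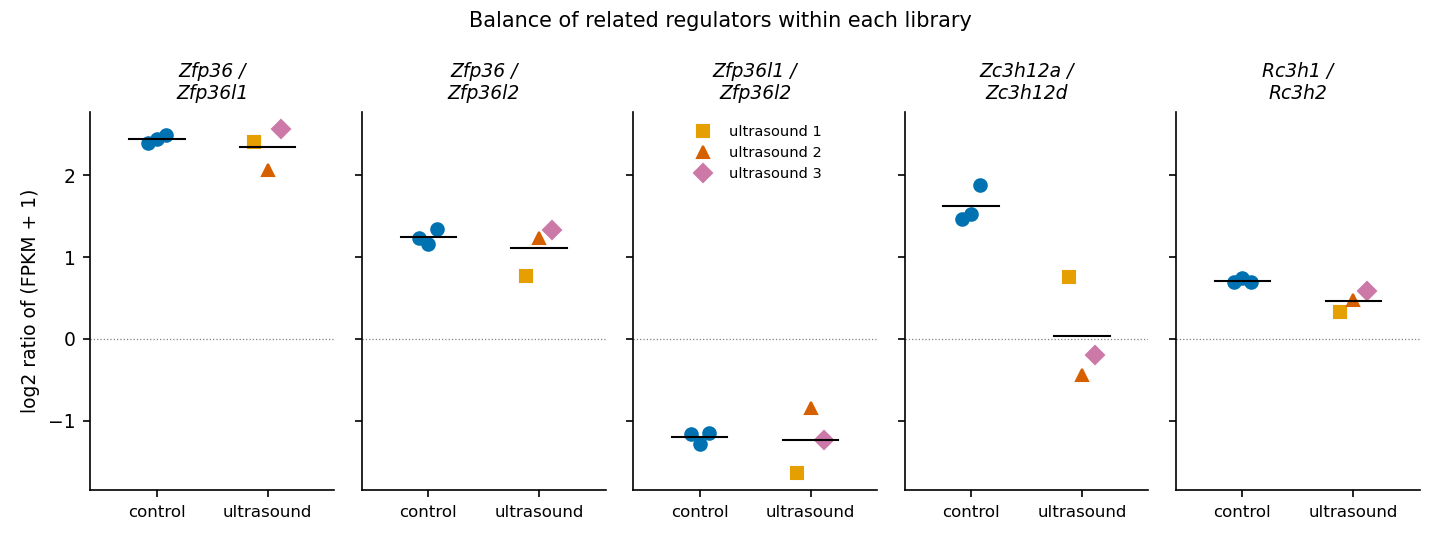
Log2 ratio of (FPKM + 1) of 2 related regulators in each library; circles are controls, other symbols are ultrasound 1, 2 and 3, and lines are group means. The Zc3h12a to Zc3h12d ratio lies between 1.47 and 1.88 in controls and between -0.44 and 0.76 in ultrasound libraries, while the ratios within the tristetraprolin family overlap.

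Promoter sequences from RefSeq (GRCm38.p6, from 250 bases before to 50 after the annotated start) were matched for 7 of the 8 genes, all but Zfp36l2. Those of the 3 genes that fell are shown so that their upstream sequence can be compared, with that of Zfp36, the most abundant of the 8. Capitals mark letters that matched a motif searched on both strands.
Zfp36: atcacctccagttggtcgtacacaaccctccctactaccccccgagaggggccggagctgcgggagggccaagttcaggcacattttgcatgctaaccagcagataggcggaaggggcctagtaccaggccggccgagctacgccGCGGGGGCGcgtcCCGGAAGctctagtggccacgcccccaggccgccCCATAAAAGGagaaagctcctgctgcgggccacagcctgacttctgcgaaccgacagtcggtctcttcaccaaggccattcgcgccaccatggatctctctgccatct
Zfp36l1: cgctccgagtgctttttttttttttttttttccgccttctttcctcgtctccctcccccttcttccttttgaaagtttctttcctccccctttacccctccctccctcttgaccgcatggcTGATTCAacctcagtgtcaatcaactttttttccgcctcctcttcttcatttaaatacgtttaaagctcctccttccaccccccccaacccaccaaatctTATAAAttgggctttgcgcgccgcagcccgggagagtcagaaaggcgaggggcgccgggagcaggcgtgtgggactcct
Zc3h12a: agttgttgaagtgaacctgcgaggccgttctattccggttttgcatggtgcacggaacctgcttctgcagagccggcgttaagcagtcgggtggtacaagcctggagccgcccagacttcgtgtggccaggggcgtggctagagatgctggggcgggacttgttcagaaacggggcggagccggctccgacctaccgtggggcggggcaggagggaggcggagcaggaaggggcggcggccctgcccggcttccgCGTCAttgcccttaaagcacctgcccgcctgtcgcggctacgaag
Pnrc1: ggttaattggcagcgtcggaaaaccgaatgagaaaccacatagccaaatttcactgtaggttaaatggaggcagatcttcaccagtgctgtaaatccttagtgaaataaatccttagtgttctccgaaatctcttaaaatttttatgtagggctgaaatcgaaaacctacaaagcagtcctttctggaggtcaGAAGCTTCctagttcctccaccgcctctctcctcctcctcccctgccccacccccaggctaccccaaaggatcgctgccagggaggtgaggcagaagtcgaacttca

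The windows, all of genes on the minus strand and written in the direction of transcription, are chr7:28379179-28379478 for Zfp36, chr12:80112964-80113263 for Zfp36l1, chr4:125127832-125128131 for Zc3h12a and chr4:33248738-33249037 for Pnrc1. The motifs searched, with the share of all 32851 RefSeq promoters of this length that hold each, were the AP-1 site TGANTCA (7.81%), the cyclic AMP response element TGACGTCA (1.79%) and its core TGACG (20.8%), which the full element contains, the NF-kB site (8.46%), the CArG box of serum response factor (1.63%), the EGR site GCGNGGGCG (5.55%), the ETS site CCGGAAG (8.86%), the TATA box TATAAA (13.6%), the heat shock element GAANNTTC (7.86%) and the E-box CACGTG (7.15%). The Zfp36 window held an EGR site starting at position -105, an ETS site at -92 and a CArG box at -58, counted from the start of transcription. The AP-1 pattern was searched with any base at its centre, and Zfp36l1 matched it with TGATTCA at -129. Zfp36l1 also had a TATA box at -29, Pnrc1 a heat shock element at -57, and Zc3h12a the element core at position 6 after the start. Among the 3 windows not shown, that of Rc3h1 matched the AP-1 pattern with TGACTCA at -133, and those of Zc3h12d and Rc3h2 had no match. The windows of these 2 genes (chr10:7832220-7832519 and chr2:37422854-37423153) are placed by a start inside the gene coordinates given above. Sequence at the outer edge of those coordinates was not fully covered. No motif was found in more than 1 of the 4 windows shown. A match describes letters in this window and not a bound site.

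The shared machinery to which these regulators deliver their targets was compared next. The first list holds 32 genes for deadenylation and decapping, such as the CCR4-NOT subunits, the PAN2-PAN3 nuclease, the decapping enzyme and the LSM ring. Of these limma called 0, where it called 8.11% of all genes tested. At an unadjusted limma p under 0.05, 1 was lower and 1 higher, where 31.2% of all genes tested differed in either direction. Their median log2 change was 0.01, beside 0.09 for all genes tested. By voom on recovered reads 0 passed, where 2.35% of genes were called lower and 2.98% higher. In the authors' deposited table q is under 0.05 for 3, all lower, where 4.98% of its genes are lower. Of 26 genes of the RNA exosome and of nonsense-mediated decay limma also called 0, with 0 lower and 3 higher at an unadjusted p under 0.05 and a median of 0.04. Voom and the authors' deposited table gave 0 there as well. Without ultrasound 1, limma called 16 of the 32 genes of the first list and 13 of the 26 of the second, both directions together, which is near the background of that fit (19.7% of all genes tested called lower and 34.1% higher).

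Of 20 tested genes among 22 for other factors that set mRNA stability, limma called 4 lower and 0 higher, where it called 1.56% of all genes tested lower and 6.55% higher. The median log2 change of the list was -0.22. The 4 are Tob1, Tob2, Btg2 and Btg1, members of the BTG/TOB family of adaptors that bring the CCR4-NOT deadenylase to mRNA. Tob1 had 36.9, 50.6 and 56.6 FPKM in controls and 27.3, 14.0 and 16.0 in ultrasound libraries, a log2 change of -1.32 with standard error 0.27 (limma adjusted p 0.0377). Tob2 had 31.8, 43.5 and 50.2 FPKM in controls and 23.5, 16.5 and 18.1 in ultrasound libraries, a change of -1.06 with standard error 0.20 (limma adjusted p 0.0322). Btg2 had 147, 155 and 211 FPKM in controls and 98.5, 71.4 and 78.9 in ultrasound libraries, a change of -1.03 with standard error 0.18 (limma adjusted p 0.0311). In each of these genes ultrasound 1 was nearest to the controls and no ultrasound library reached them. Btg1, named after its values were seen because it completes the called genes, went from 313 ± 19.1 to 199 ± 26.8 FPKM (SD, n = 3 each), a log2 change of -0.66 (limma adjusted p 0.0312).

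The list of described targets holds mRNAs for which binding or decay by one or more of these regulators has been reported, such as cytokines and NF-kB factors. Of 17 tested among 24, limma called 6 lower and 0 higher, where it called 1.56% of all genes tested lower. The median log2 change of the list was -0.94. In 11 of the 17 every ultrasound library lay below every control, beside 8.96% of all genes tested. Cd69, an early activation receptor, had 252, 236 and 288 FPKM in controls and 121, 25.3 and 30.3 in ultrasound 1, 2 and 3, and fell by 2.48 on the log2 scale (standard error 0.54, limma adjusted p 0.0442). With median-of-ratios size factors Cd69 did not pass (-2.60, limma adjusted p 0.0525). Ifng, which encodes interferon gamma, had 34.8, 37.5 and 49.7 FPKM in controls and 18.3, 9.39 and 12.1 in ultrasound libraries, and fell by 1.58 (standard error 0.24, limma adjusted p 0.0304). The immediate early gene Ier2 had 253, 287 and 369 FPKM in controls and 175, 98.0 and 126 in ultrasound libraries, and fell by 1.20 (standard error 0.23, limma adjusted p 0.0347). These 3 had the lowest log2 changes among the called genes of the list, and none overlapped between the groups. The other called genes, named after their values were seen, were Rel (-0.94) and Nfkbid (-1.08), both of the NF-kB pathway, and the transcription factor gene Irf4 (-0.70). Tnf, a classical target of tristetraprolin, had 32.3 to 38.8 FPKM in controls and 36.8, 14.4 and 17.3 in ultrasound 1, 2 and 3 (limma adjusted p 0.164). Ier3, Cxcl2, Il10 and Tnfrsf4, none of them called, were highest of the 6 libraries in ultrasound 1, at 65.3, 71.6, 7.38 and 36.5 FPKM. In controls they had 21.2 to 31.3, 17.1 to 53.6, 4.12 to 5.01 and 20.8 to 25.3 FPKM. Il2, Csf2, Il4, Il6, Il17a, Cxcl1 and Il12b were too low to enter the fit.

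Of 20 genes whose products control these regulators as proteins, limma called 2, both higher, where 6.55% of all genes tested were called higher, so that the count is near the background share. The median log2 change was 0.06. Mapkapk2 encodes the kinase downstream of p38 that phosphorylates tristetraprolin. It had 49.1, 40.2 and 38.0 FPKM in controls and 73.6, 59.0 and 73.4 in ultrasound libraries, a log2 change of 0.68 with standard error 0.14 (limma adjusted p 0.0371). Its relative Mapkapk3 had 15.2, 14.0 and 15.1 FPKM in controls and 21.7, 25.8 and 27.8 in ultrasound libraries, a change of 0.72 with standard error 0.11 (limma adjusted p 0.0304). All ultrasound libraries lay above all controls for both genes, as they did for 25.9% of all genes tested. With median-of-ratios size factors Mapkapk2 did not pass (0.56, limma adjusted p 0.071). The macrophage and monocyte markers given above were higher in the same libraries, and their part in these 2 rises was not tested. Malt1, the protease that cleaves Regnase-1 and Roquin after T cell receptor signalling, had 38.4, 39.0 and 33.3 FPKM in controls and 32.4, 26.8 and 23.9 in ultrasound libraries (limma adjusted p 0.097).

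**Figure D4:**
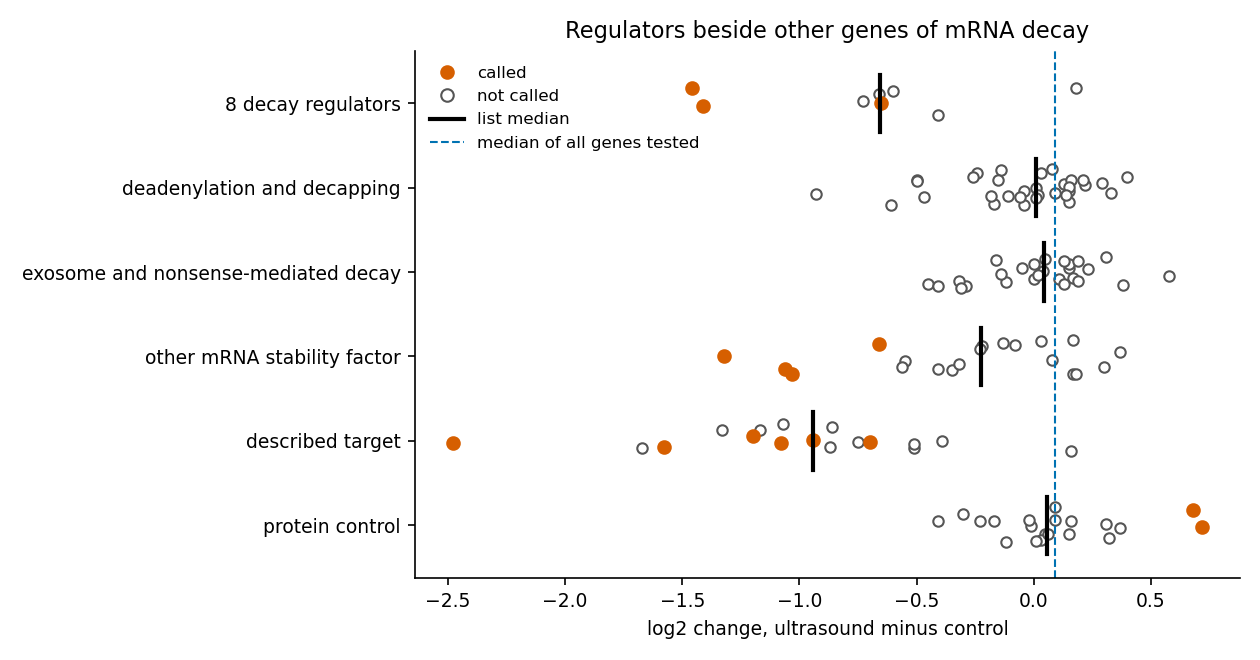
Log2 change (ultrasound minus control) of the tested genes in the 8 regulators and 5 lists of mRNA decay; filled points were called by limma, open points were not, black bars are list medians and the dashed line is the median of all genes tested. The regulators and described targets have medians of -0.65 and -0.94. The 2 lists of general machinery have medians of 0.01 and 0.04 with 0 calls, where 8.11% of all genes tested were called.

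Among the 8, Zc3h12a and Pnrc1 had the most alike profiles over the 6 libraries, with a root mean square difference of 0.126 between centred log2(FPKM + 1) values, followed by the pair of Roquin genes at 0.147 and Zfp36 with Zfp36l1 at 0.157. Zc3h12d was farthest from Pnrc1, at 0.952. By the same measure over all genes tested, the 3 genes most like Zc3h12a were Frat2 (0.0888), Dusp2 (0.104) and Tiparp (0.112), where the median gene lay at 0.819. Dusp2, an immediate early phosphatase of MAP kinases, had 313 to 368 FPKM in controls and 165, 85.8 and 114 in ultrasound 1, 2 and 3. Those most like Pnrc1 were Gla (0.0297), Mafk (0.0462) and Hexim1 (0.0604), with the median gene at 0.883. Those most like Zfp36l1 were Egr3 (0.0525), Zfas1 (0.0609) and Srsf3 (0.0627), with the median gene at 0.426. These are likenesses over 6 libraries that differ in group, and they carry no test.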

How the data were processed

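RNA-seq of 6 sorted CD8 T cell libraries, 3 control and 3 ultrasound, was used as deposited, with groups from the sample titles. HISAT2, HTSeq, DESeq2, R 3.2.0 and mm10 are named in the submitters' processing notes, with no role or order. The authors' full table gives FPKM per library, per the file headers. Its signal columns are the authors' means of DESeq2 normalized counts, per the file headers, and its fold (ratio), log2 fold change, p-value and q-value columns are the authors' own comparison. The deposited filtered table repeats genes of the full table and was not used here.

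The table has no count column, so log2(FPKM + 1) was tested with limma 3.58.1 (trend, robust) in R 4.3.3, with Benjamini-Hochberg adjustment over the 10655 genes that reached FPKM 1 in 3 libraries or more. The pseudocount understates changes of low genes. Whole reads were recovered from the linear relation between FPKM and group means: of 42753 values under 200 reads, 100% lay within 0.05 of a whole number. Counting error only is covered by such reads, which carry no molecular identifiers. The fit and the recovery were tested on simulated data. Paralog ratios were tested with exact permutation in scipy 1.17.1. Python 3.11.15, numpy 2.4.6, pandas 2.3.3 and matplotlib 3.10.9 were used otherwise.

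The members and lists were chosen with earlier results of these data known. Genes named are the 8 members, the up to 3 called genes with the largest rise and fall per list whose groups do not overlap, the 3 genes most alike each called member (Gm and Rik symbols left out) and Cd3e, Cd8a and Cd8b1; others are counts spelled out or background beside them, chosen after their values were seen. Summed FPKM overlapped between groups for markers of CD4 T cells (146 to 171 in controls, 94.6 to 169 in ultrasound libraries), dendritic cells (17.5 to 37.0, 21.7 to 63.1), erythroid cells (82.5 to 132, 54.7 to 112) and platelets (1.05 to 2.77, 1.86 to 4.45). The dendritic sum was 21.7 in ultrasound 1 but 63.1 and 57.5 in ultrasound 2 and ultrasound 3, above every control. Within the CD4 list Ctla4, also a described target, had 81.5 to 88.8 FPKM in controls and 76.8, 14.4 and 15.8 in ultrasound 1, 2 and 3. The log2 changes of Cd4, Foxp3 and Cd40lg were 0.29, 0.49 and -0.02, none called. Trac was not used here. Replicate numbers do not pair the libraries. Alternatives covered scaling, filters, pseudocount, the robust option, a replicate block, each library left out, a term for ultrasound 2 and 3, voom on recovered reads, the authors' q-values and the threshold.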

Additional observations from a re-analysis of the deposited data

How the results depend on the processing

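Over 16 alternatives for each of the 8 regulators, 2 of 128 results reversed, both with a term for ultrasound 2 and 3, where the lone ultrasound 1 is assumed to vary like the other libraries: Zfp36l2 (0.062) and Rc3h2 (0.17), neither called in the main analysis. Among the 128 results, 22 lost and 6 gained an adjusted p under 0.05. All 22 losses fell on the 3 called regulators, since only a called gene can lose its call. Of 16 alternatives each, Zfp36l1 was called in 8, Zc3h12a in 9 and Pnrc1 in 9. The cause of the differences below was not tested.

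The main counts of called genes were 864 over all genes, 3 regulators, 0 for deadenylation and decapping, 0 for exosome and nonsense-mediated decay, 4 other stability factors, 6 described targets and 2 protein control genes. Leaving out one library gave 0 to 5727 genes, 0 to 7 regulators, 0 to 16, 0 to 13, 0 to 15, 0 to 16 and 0 to 10 genes of the lists in that order. Each highest count came without ultrasound 1. Without control 2, control 3, ultrasound 2 or ultrasound 3 limma called 0 genes; unadjusted p fell under 0.05 for 1962, 2154, 2058 and 1998. Without a filter on low values and with the replicate block 0 genes passed in all, hence 0 in each list, with 4216 and 3249 genes at an unadjusted limma p under 0.05. Replicate numbers share no source in the labels, and their deviations from the group means had correlations of -0.0406, 0.0513 and 0.0578 by number. Median-of-ratios factors gave 468 genes and 1 protein control gene, upper-quartile factors 1 protein control gene, and voom on recovered reads 568 genes and 1 protein control gene. A term for ultrasound 2 and 3 gave 150 genes, 0 other stability factors, 1 described target and 0 protein control genes. Adjusted p under 0.1 gave 1962 genes, 5 regulators, 2, 2 and 9 genes of the first 3 lists and 5 protein control genes; under 0.01 it gave 0 genes in all, with 3321 at an unadjusted limma p under 0.05. The authors' deposited q-values gave 2179 genes, 5 regulators, 3 deadenylation and decapping genes, 10 other stability factors, 10 described targets and 4 protein control genes.

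For the paralog ratios, leaving out one library gave log2 differences from -0.20 to 0.051 for Zfp36 to Zfp36l1, -0.25 to 0.036 for Zfp36 to Zfp36l2, -0.25 to 0.15 for Zfp36l1 to Zfp36l2, -1.95 to -1.35 for Zc3h12a to Zc3h12d and -0.31 to -0.19 for Rc3h1 to Rc3h2. With the replicate block the smallest exact permutation p was 0.25, for Zc3h12a to Zc3h12d (-1.59) and Rc3h1 to Rc3h2 (-0.25). Every regulator passed the FPKM filter of the fit, and each had 1095 reads or more in every library.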
